A study of Mus musculus with 6 samples.

Results

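The genes described here are the protein genes of the mouse mitochondrial genome that were chosen by symbol: mt-Nd1, mt-Nd2, mt-Nd4, mt-Nd5, mt-Nd6, mt-Cytb, mt-Co1, mt-Co2, mt-Co3 and mt-Atp6, 10 of the 18019 genes in the deposited table. They were picked because their share of each library's total differed sharply between libraries, so differences between libraries are given as a description, with no test. All 10 passed the filter of at least 1 FPKM in at least 3 libraries (FPKM, fragments counted relative to the length of the gene and the depth of the library). RNA was sequenced from RAW264.7, a mouse macrophage line transformed by a leukaemia virus, after induction with lipopolysaccharide (LPS). The control group (3 libraries) was untreated and the other group (3 libraries) was treated with TPPU, an inhibitor of soluble epoxide hydrolase. Both groups carried the LPS induction, and the labels give no dose or time of either agent. All libraries have the same batch label, and the labels do not say whether replicates are separate cultures. The p-values below therefore measure the spread between libraries, which may be technical.

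Mitochondrial DNA encodes core subunits of respiratory complexes I, III and IV and of ATP synthase, and the other subunits come from nuclear genes. Both of its strands are transcribed into long precursors, which are cut at the tRNAs between the genes. Most of the messenger RNAs then receive a short poly(A) tail, which for some of them completes the stop codon. In macrophages, LPS is known to turn energy metabolism towards glycolysis, and the respiratory chain then also serves as a source of reactive oxygen.

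The libraries were made from RNA caught on oligo(dT), so capture goes by poly(A). In 3 of the 10 genes the annotated sequence ends on the first base of the stop codon, which is left for the tail to complete. The last 30 bases of those genes are shown with that base in capitals, beside mt-Co1 with its encoded stop codon in capitals. All 4 lie on the + strand of the mitochondrial chromosome (mm10, GENCODE M21): mt-Co3 at chrM:9361-9390, mt-Nd4 at chrM:11515-11544, mt-Cytb at chrM:15259-15288 and mt-Co1 at chrM:6843-6872.
mt-Co3: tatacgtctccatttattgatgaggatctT
mt-Nd4: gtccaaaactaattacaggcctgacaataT
mt-Cytb: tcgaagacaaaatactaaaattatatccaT
mt-Co1: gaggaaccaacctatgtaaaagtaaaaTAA

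The genes also differ in how much of their sequence is repeated in the nuclear genome. Nuclear copies of mitochondrial DNA are old insertions, and reads that fit a copy as well as the original can be dropped or divided by a counting program. On chromosome 1, between 24611535 and 24616197 on the - strand, 7 annotated pseudogenes repeat mitochondrial genes at 99.7% to 100% identity. These copies cover mt-Co2, mt-Atp6 and mt-Co3 over nearly their whole length, bases 1 to 876 of mt-Nd4 and bases 1063 to 1545 of mt-Co1. Of all stretches of 100 bases, 99.5% of those in mt-Co2, 99.5% of those in mt-Atp6 and 99.9% of those in mt-Co3 occur letter for letter in an annotated nuclear transcript. The share is 60.8% in mt-Nd4, 30.8% in mt-Co1 and 3.19% in mt-Nd2. It is 0% in mt-Nd1, mt-Nd5, mt-Nd6 and mt-Cytb, whose closest copies have 76.6%, 92.3%, 93.6% and 92.9% identity. The share depends on the length of the stretch. With stretches of 50 bases it is 51.1% in mt-Co1, 8.19% in mt-Nd2 and 7.61% in mt-Nd5, and still 0% in mt-Nd1, mt-Nd6 and mt-Cytb. Nuclear sequence outside annotated transcripts was not searched.

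A stretch of 60 bases from the middle of the closest alignment is shown for 3 of the genes, with the bases that differ between gene and copy in capitals. The same stretch of mt-Nd1, which is not shown, differs from its closest copy at 14 bases. The stretch of mt-Co3 (chrM:8968-9027, + strand) and that of the pseudogene Gm28437 (chr1:24613551-24613610, - strand) have no difference. The stretch of mt-Nd2 (chrM:4667-4726, + strand) differs at 3 bases from Gm13339 (chr2:22590249-22590308, - strand). The stretch of mt-Nd6 (chrM:13782-13841, - strand) differs at 8 bases from Gm11408 (chr4:80003626-80003685, - strand).
mt-Co3: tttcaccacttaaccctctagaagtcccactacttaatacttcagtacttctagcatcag
Gm28437: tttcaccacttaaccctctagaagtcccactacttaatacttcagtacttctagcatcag
mt-Nd2: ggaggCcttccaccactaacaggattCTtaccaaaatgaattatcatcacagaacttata
Gm13339: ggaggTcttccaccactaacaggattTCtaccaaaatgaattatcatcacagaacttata
mt-Nd6: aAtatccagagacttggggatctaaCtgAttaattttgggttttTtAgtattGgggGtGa
Gm11408: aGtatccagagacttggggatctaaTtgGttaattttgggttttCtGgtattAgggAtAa

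Control replicate 3 and TPPU replicate 1 stood apart in the share of FPKM held by the 10 genes. The share was 1.46%, 1.73% and 0.369% in control replicates 1, 2 and 3, and 0.911%, 1.54% and 1.84% in TPPU replicates 1, 2 and 3. These are the values for which the genes were picked. The group means were 1.18% ± 0.719 in control and 1.43% ± 0.475 with TPPU (SD, n = 3 each), and the groups overlapped. Their difference of 0.247 percentage points turned to -0.161 without control replicate 3. It was 0.00205 with mt-Co1 left out, so nearly all of it lay in that 1 gene, and 0.375 with the 50 most abundant nuclear genes left out of the total. Without the libraries that stood apart the means were 1.59% and 1.69%. Control replicate 3 was the lowest of the 6 libraries in 5 of the 10 genes, against 27.7% of all tested genes, and the highest in 2, against 34.8%. In bulk RNA, less mitochondrial RNA per cell and fewer cells that hold much of it cannot be told apart, and FPKM gives a part of the total, not an amount per cell.

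Estimated depth was 17700000 to 22800000 fragments per library. The same steps that gave this depth gave fragments for single genes: all 32 mitochondrial values of 1 to 300 fragments came out within 0.15 of a whole number. Over 9511 nuclear genes, the GC content of the transcript correlated across genes with the deviation of control replicate 3 (Spearman's rho 0.600) and with that of TPPU replicate 1 (0.314). The correlation was computed for these libraries only, so it cannot be compared with that of the others. Genes are not independent replicates. All 10 macrophage markers stood at 1.41 FPKM or more in every library. Markers of fibroblasts, epithelial, T, B and endothelial cells and neutrophils lay between 0 and 3.09. For the TPPU samples the descriptions cite a column named for sh-LIS1 in another table. Pafah1b1, the gene of LIS1, measured 11.7, 14.2 and 6.52 FPKM in control replicates 1, 2 and 3. With TPPU it measured 10.7, 13.5 and 14.2 FPKM, so its lowest value was in control replicate 3.

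**Figure D1:**
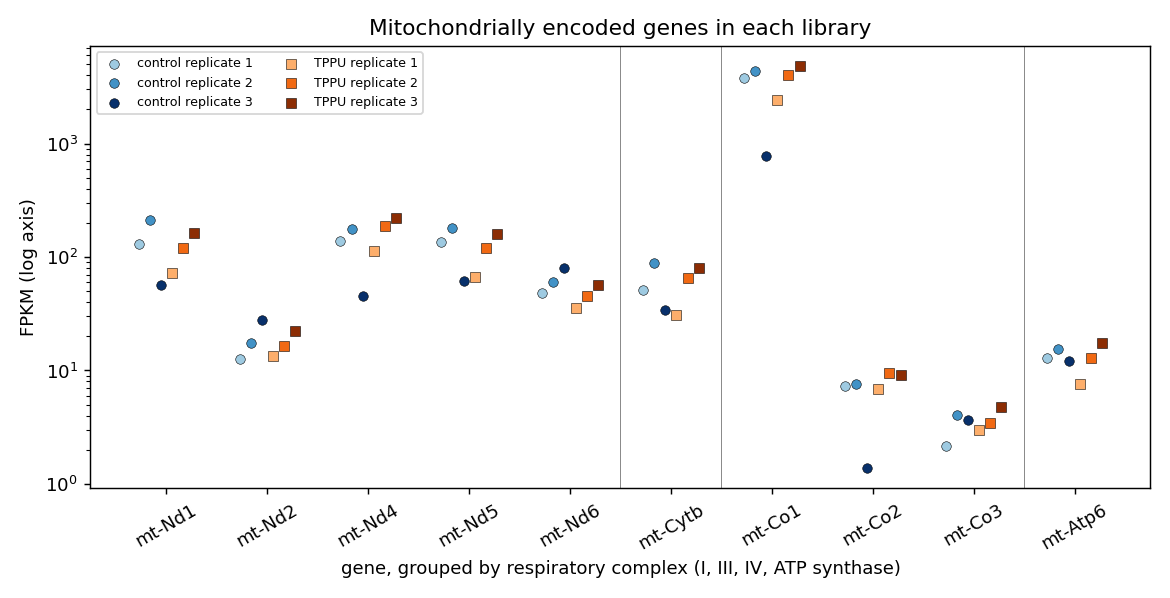
FPKM of the 10 mitochondrially encoded genes (log axis) in each of the 6 libraries, 1 point per library, circles for control and squares for TPPU. The mt-Co1 points lie between 784 and 4830, above those of every other gene, and control replicate 3 is the lowest point in mt-Nd1, mt-Nd4, mt-Nd5, mt-Co1 and mt-Co2 but the highest in mt-Nd2 and mt-Nd6.

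Complex IV, cytochrome c oxidase, passes electrons to oxygen, and mt-Co1, mt-Co2 and mt-Co3 encode its catalytic core. The gene mt-Co1 (chrM:5328-6872, + strand) carries the heme and copper site where oxygen is reduced. It measured 3800, 4380 and 784 FPKM in control replicates 1, 2 and 3, and 2420, 4060 and 4830 FPKM in TPPU replicates 1, 2 and 3. Control replicate 3 was the lowest and TPPU replicate 1 the next, while the other 4 libraries of both groups lay close together. In 4 libraries mt-Co1 ranked 6 by FPKM among all genes, in TPPU replicate 1 it ranked 8, and in control replicate 3 it ranked 34. It made up 85.2% to 87.6% of the FPKM of the 10 genes in 5 libraries and 70.9% in control replicate 3. The group means were 2990 ± 1930 and 3770 ± 1230 (SD, n = 3 each), and the log2 change of mt-Co1 with TPPU was 0.62 on the log2(FPKM + 1) scale (SE 0.59, adjusted p = 0.787 by limma with Benjamini-Hochberg adjustment). Without control replicate 3 the change was -0.17.

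The gene mt-Co2 (chrM:7013-7696, + strand), whose product takes electrons from cytochrome c, was far lower on the same scale per length. It measured 7.36, 7.53 and 1.38 FPKM in control and 6.82, 9.55 and 9.16 FPKM with TPPU, in the order of the replicates. Control replicate 3 was again the lowest. Its 18 fragments, with an exact Poisson 95% interval of 10.7 to 28.4 that covers counting error alone, stood against 85 to 149 fragments in the other libraries. The log2 change of mt-Co2 was 0.77 (SE 0.44, limma adjusted p = 0.682), and 0.16 without control replicate 3.

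The gene mt-Co3 (chrM:8607-9390, + strand) encodes the third core subunit, which has no metal site. It measured 2.16, 4.02 and 3.67 FPKM in control and 3.01, 3.47 and 4.75 FPKM with TPPU. Control replicate 3 was in the middle of the range here and not at its foot. Its 55 fragments (95% interval 41.4 to 71.6) overlapped the interval of each of the other libraries, whose counts were 30 to 79. The log2 change of mt-Co3 was 0.16 (SE 0.21, limma adjusted p = 0.853), or -0.05 without control replicate 1. The proteins of these 3 genes join in equal numbers in each complex, yet mean FPKM over the 6 libraries was 3380 for mt-Co1, 6.97 for mt-Co2 and 3.51 for mt-Co3. The latter pair are the genes covered nearly whole by the identical copies on chromosome 1, as the printed stretch of mt-Co3 shows. How the authors' counting treated reads that fit more than 1 place is not given in the sources used here, so the levels of both are uncertain, and the part of the copies in them was not tested.

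ATP synthase makes ATP from the proton gradient, and mt-Atp6 (chrM:7927-8607, + strand) encodes the subunit that forms the proton channel. It measured 12.9, 15.5 and 12.1 FPKM in control and 7.66, 12.9 and 17.6 FPKM with TPPU. TPPU replicate 1 was the lowest, and control replicate 3 lay just under control replicate 1. The log2 change of mt-Atp6 was -0.14 (SE 0.25, limma adjusted p = 0.885), and 0.15 without TPPU replicate 1. This is the third gene with an identical copy over nearly its whole length, and its mean of 13.1 FPKM was below that of the 7 other members apart from mt-Co2 and mt-Co3.

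**Figure D2:**
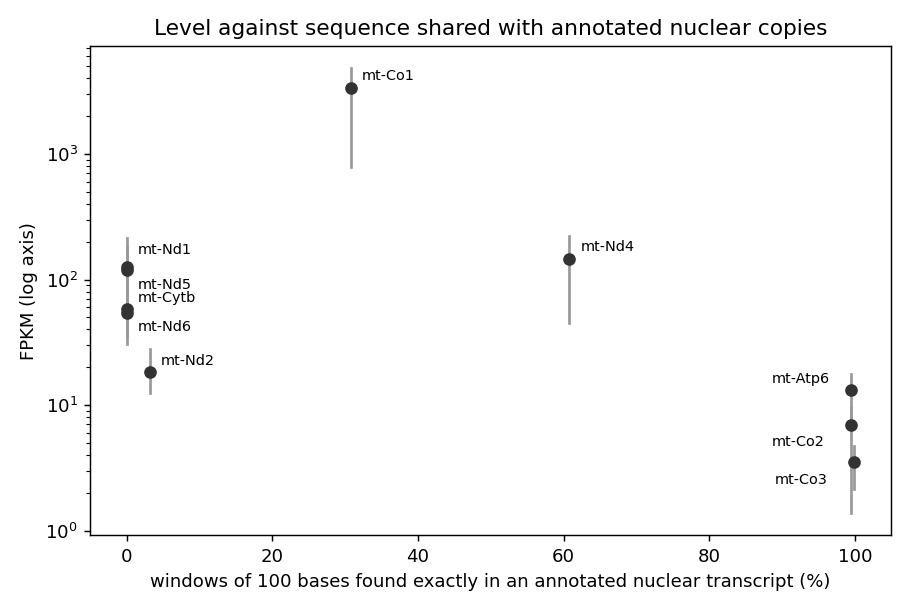
Mean FPKM over 6 libraries (log axis; lines run from the lowest to the highest library) against the share of each gene's windows of 100 bases that occur exactly in an annotated nuclear transcript. The 3 genes at 99.5% to 99.9% have means of 3.51 to 13.1 FPKM, while mt-Nd2, at 3.19%, has a mean of 18.3.

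Complex I, NADH dehydrogenase, takes electrons from NADH and pumps protons, and the mitochondrial genome encodes the core of its membrane arm. The gene mt-Nd1 (chrM:2751-3707, + strand) encodes the subunit next to the site where quinone binds. It measured 131, 213 and 57.1 FPKM in control and 71.9, 119 and 164 FPKM with TPPU. Control replicate 3 and TPPU replicate 1 were the lowest, and control replicate 2 the highest. Its log2 change was -0.06 (SE 0.45, limma adjusted p = 0.971), with values from -0.58 to 0.36 as single libraries were left out.

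The genes mt-Nd4 and mt-Nd5 encode proton-pumping subunits of that arm. For mt-Nd4 (chrM:10167-11544, + strand) the values were 139, 177 and 45.3 FPKM in control and 113, 186 and 223 FPKM with TPPU. Its log2 change was 0.68 (SE 0.47, limma adjusted p = 0.718), or 0.09 without control replicate 3. For mt-Nd5 (chrM:11742-13565, + strand) the values were 135, 181 and 60.9 FPKM in control and 67.1, 119 and 160 FPKM with TPPU. Its log2 change was -0.07 (SE 0.42, limma adjusted p = 0.969), or 0.27 without TPPU replicate 1. Both genes were lowest in control replicate 3 and next lowest in TPPU replicate 1, but TPPU replicate 1 was nearly as low as control replicate 3 in mt-Nd5 (67.1 and 60.9) and not in mt-Nd4 (113 and 45.3).

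The gene mt-Nd2 (chrM:3914-4951, + strand), a further pump subunit, ran the other way in control replicate 3. It measured 12.5, 17.5 and 27.8 FPKM in control and 13.3, 16.4 and 22.3 FPKM with TPPU. Control replicate 3 was the highest library, with 552 fragments (95% interval 507 to 600, or 25.6 to 30.3 FPKM), and TPPU replicate 3 followed with 492 (449 to 537, or 20.4 to 24.4 FPKM). The intervals cover counting error alone. The log2 change of mt-Nd2 was -0.10 (SE 0.28, limma adjusted p = 0.926), and 0.19 without control replicate 3. The level of mt-Co1 stood at 28.2 times mt-Nd2 there and at 181 to 304 times in the others.

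The gene mt-Nd6 (chrM:13552-14070, - strand) is the only one of the 10 on the opposite strand of the mitochondrial genome, and its messenger RNA is known in human cells to lack a poly(A) tail. It measured 47.7, 60.3 and 80.2 FPKM in control and 35.4, 45 and 56.2 FPKM with TPPU. Control replicate 3 was the highest library and TPPU replicate 1 the lowest. The log2 change of -0.45 (SE 0.21, limma adjusted p = 0.63) was negative under each of 18 alternatives, from -0.63 to -0.09. Several of these alternatives cannot move the change of a gene, and all reuse the same libraries, so the count is not independent support. The end of mt-Nd6 overlaps that of mt-Nd5 (chrM:13552-13565). The library kit marked strand, but whether the counting used it is not given in the sources used here, so reads of the overlap could have gone to either gene. The ratio of mt-Nd6 to mt-Nd5 was 1.32 in control replicate 3, 0.528 in TPPU replicate 1 and 0.334 to 0.377 in the other 4 libraries.

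Complex III hands electrons from quinol to cytochrome c, and mt-Cytb (chrM:14145-15288, + strand) encodes its cytochrome b. It measured 51.6, 88.2 and 33.8 FPKM in control and 30.6, 65.7 and 79.8 FPKM with TPPU. TPPU replicate 1 and control replicate 3 were the lowest libraries, in that order. The log2 change was 0.02 (SE 0.40, limma adjusted p = 0.99), and -0.31 without control replicate 3.

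**Figure D3:**
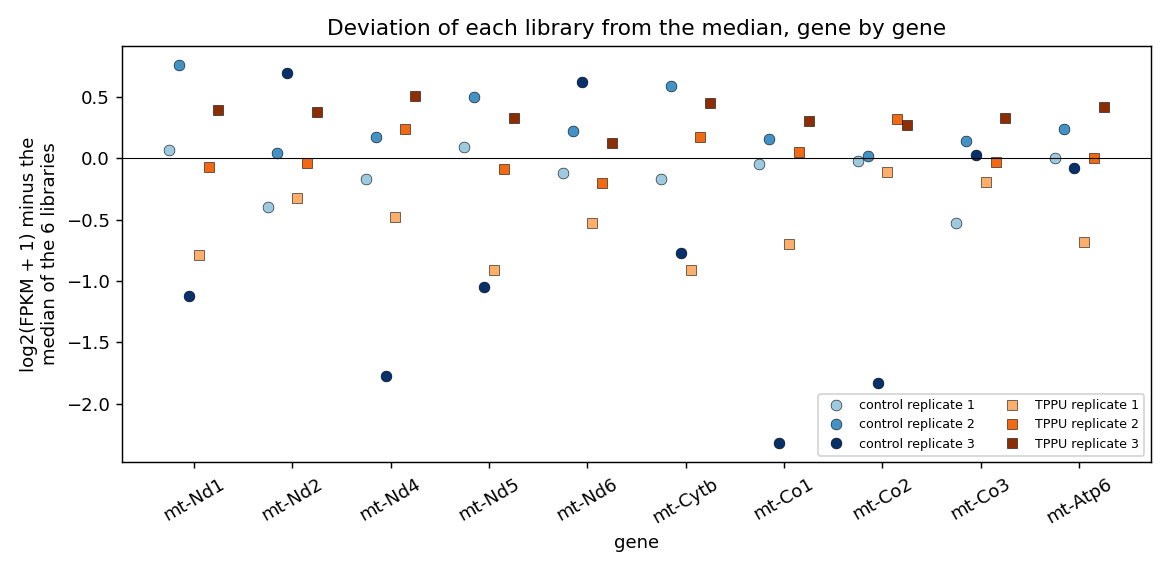
Deviation of each library from the median of the 6 libraries, on the log2(FPKM + 1) scale, for each gene. Control replicate 3 reaches -2.32 in mt-Co1, -1.83 in mt-Co2 and -1.77 in mt-Nd4, but lies at 0.69 in mt-Nd2 and 0.62 in mt-Nd6.

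In control replicate 3 the 10 genes did not shift together. Its FPKM was under 0.5 times the median of the other libraries in 5 genes, against 5.23% of all 9728 tested genes, and over 1.5 times it in mt-Nd2 and mt-Nd6, against 4.77%. The ratio to that median ran from 0.183 in mt-Co2 and 0.193 in mt-Co1 through 0.256 in mt-Nd4, 0.434 in mt-Nd1, 0.45 in mt-Nd5 and 0.515 in mt-Cytb to 0.938 in mt-Atp6, 1.06 in mt-Co3, 1.68 in mt-Nd6 and 1.70 in mt-Nd2. Among all tested genes, ordered from the lowest by the change in that library, mt-Co1 held place 4 and mt-Nd4 place 19, while mt-Nd2 and mt-Nd6 held places 9667 and 9669. These positions come from the contrast that chose the genes.

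TPPU replicate 1 was more uniform. Its ratio to the median of the 4 libraries that did not stand apart ran from 0.421 in mt-Cytb to 0.818 in mt-Co2. The share of all tested genes below that median was not computed, and the genes were picked for such differences. Against control replicate 1 alone, TPPU replicate 1 was higher in mt-Nd2 (13.3 and 12.5 FPKM) and mt-Co3 (3.01 and 2.16 FPKM). Control replicate 3 and TPPU replicate 1 were the lowest pair in 7 of the 10 genes, against 15.6% of tested genes.

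The GC content of the 10 genes was 34.1% to 39.9%, at the low end of all transcripts. Over the 1086 tested nuclear genes with a transcript GC content of at most 42%, control replicate 3 lay at a median of 0.778 times the other libraries, with a median log2 difference of -0.36 and 5th and 95th percentiles of -1.17 and 0.15. The values of mt-Nd2 and mt-Nd6 (0.73 and 0.74 as log2 differences) lay above that range. Those of mt-Co1, mt-Co2 and mt-Nd4 (-2.37, -1.84 and -1.94) lay below it, and that of mt-Nd1 (-1.19) just below it. The values of mt-Nd5, mt-Cytb, mt-Atp6 and mt-Co3 (-1.14, -0.94, -0.09 and 0.06) lay within it. The GC content was 39.9% in mt-Co1, 38.6% in mt-Co2, 35.6% in mt-Nd4 and 37.6% in mt-Nd1, and 35.7% in mt-Nd2 and 34.1% in mt-Nd6. The part of GC content in the members' values was not tested.

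Of the other 3 protein genes of the mitochondrial genome, mt-Atp8 and mt-Nd3 were at or near the floor and mt-Nd4l was not. The share of 100-base stretches found in an annotated nuclear transcript is 0% in mt-Atp8, 97.6% in mt-Nd3 and 98.5% in mt-Nd4l. The gene mt-Atp8 is 204 bases long (chrM:7766-7969), and its end overlaps the start of mt-Atp6 (chrM:7927-8607). The cause of the low levels was not tested. For mt-Atp8 the estimates were 0 to 2 fragments a library and for mt-Nd3 0 to 3, at or under the 3 fragments that a count of 0 allows, so no fold is given. The gene mt-Nd4l measured 17.7, 14.4 and 5.64 FPKM in control and 9.98, 9.89 and 15.2 FPKM with TPPU. It was lowest in control replicate 3, like its neighbour mt-Nd4. The mitochondrial rRNAs were not analysed here.

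None of the 10 genes passed the test between TPPU and control. The fit over all 9728 genes called 0 of the 10 with TPPU higher (0% of all tested genes were called) and 0 with TPPU lower (0%). The number with an unadjusted p below 0.05 was 768 in the whole table and 0 among the 10. The median log2 change of the 10 genes was -0.02, with 5 positive and 5 negative, beside 0.02 over all tested genes, of which 54.4% were positive. In none of the 10 did the groups separate fully, where 15.4% of tested genes did (7.48% with TPPU above and 7.88% with TPPU below). The 95% intervals were wide: that of mt-Co1 ran from -0.74 to 1.98 and that of mt-Nd6 from -0.93 to 0.04, so changes of some size in either direction were not detectable for mt-Co1 at this spread. Counting error was not the limit for mt-Co1, at 23117 to 158521 fragments a library. Leaving out both libraries that stood apart, a choice made after the data were seen, gave 29 higher and 10 lower genes over the whole table and 0 among the 10. Without TPPU replicate 1 alone the whole table held 5 higher and 1 lower, and with sample quality weights 89 and 80, again with 0 among the 10.

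**Figure D4:**
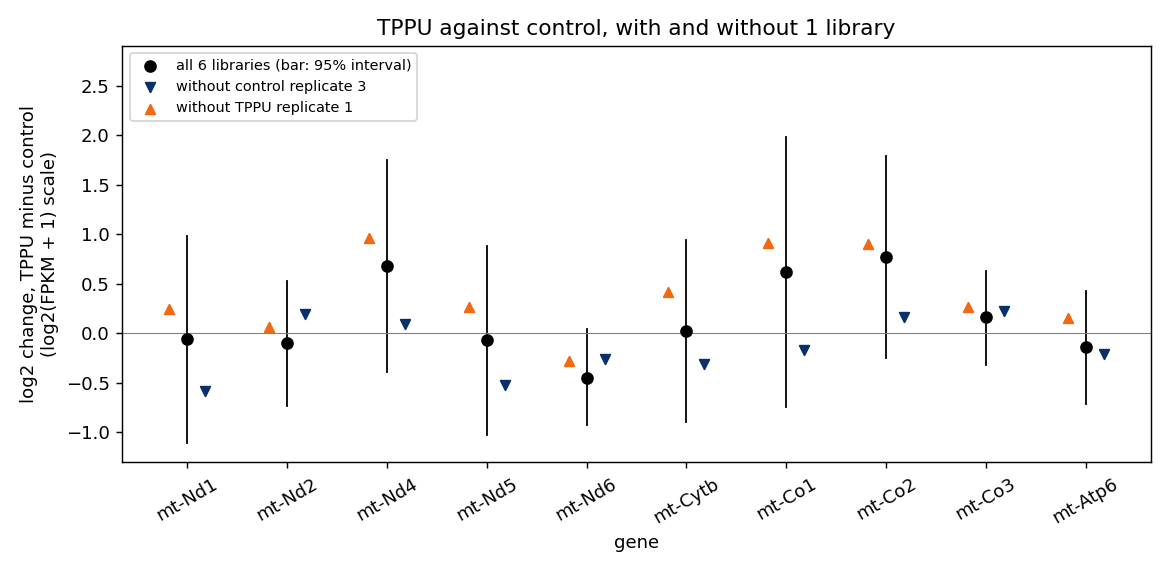
Log2 change of TPPU against control for each gene on the log2(FPKM + 1) scale. Black points are from all 6 libraries with 95% intervals, and triangles leave out 1 library. All 10 intervals cross 0, and mt-Co1 moves from 0.62 to -0.17 without control replicate 3.

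Ratios between genes within a library do not depend on how the library was scaled, and some of them separated the groups. Of all 45 pairs among the 10 genes, 11 (24.4%) had TPPU values wholly above or wholly below control values, against 16% of all pairs of tested genes. Counting error was not taken into account in either share, so pairs with a narrow gap are included. The pairs share genes and are not independent, and the following were chosen after their values were seen, with no test. The ratio of mt-Nd4 to mt-Nd5 was 1.03, 0.979 and 0.745 in control and 1.68, 1.56 and 1.40 with TPPU (means 0.918 ± 0.152 and 1.55 ± 0.141, n = 3 each). The ratio of mt-Nd1 to mt-Nd4 was 0.942, 1.20 and 1.26 in control and 0.638, 0.637 and 0.734 with TPPU. Both hold mt-Nd4, as do 5 of the 11 pairs. The ratio of mt-Nd1 to mt-Co1, without mt-Nd4, was 0.0345, 0.0485 and 0.0728 in control and 0.0297, 0.0292 and 0.0339 with TPPU. By contrast, the ratio of mt-Nd4 to mt-Co1 did not separate the groups, at 0.0367 to 0.0578 in control and 0.0458 to 0.0466 with TPPU. An exact permutation test of 3 libraries against 3 cannot give a two-sided p below 0.1. The first 876 of the 1378 bases of mt-Nd4 have an identical nuclear copy, and the part of that copy in the ratios that hold mt-Nd4 was not tested.

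**Figure D5:**
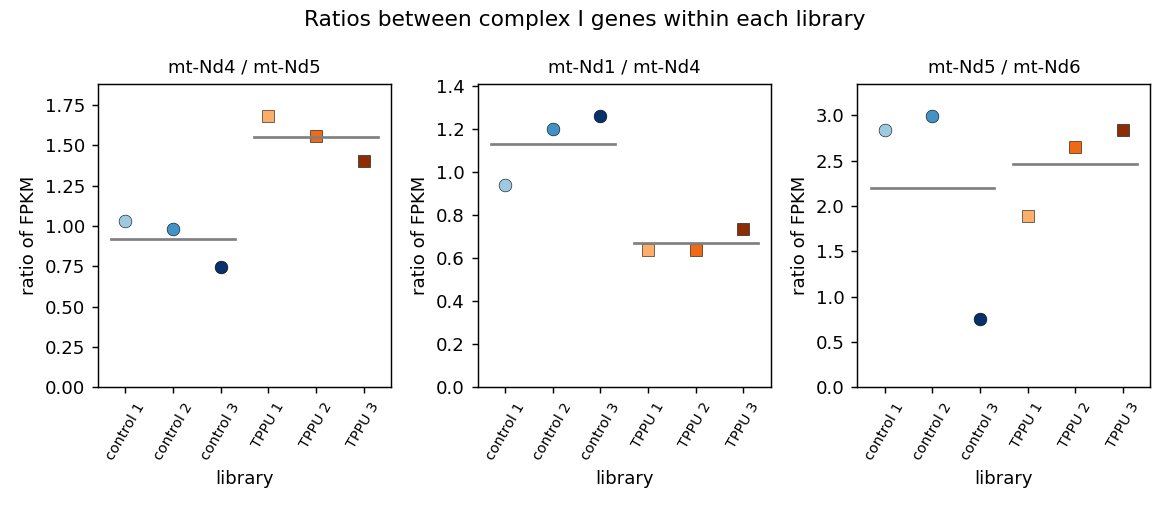
Ratios of FPKM between complex I genes within each library, with group means as lines. The ratio of mt-Nd4 to mt-Nd5 is at most 1.03 in control and at least 1.40 with TPPU, the ratio of mt-Nd1 to mt-Nd4 is at least 0.942 in control and at most 0.734 with TPPU, and the ratio of mt-Nd5 to mt-Nd6 overlaps between groups with control replicate 3 the lowest.

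The 10 genes did not all vary together. On the log2(FPKM + 1) scale over the 6 libraries, Pearson's r with mt-Co1 was 0.99 for mt-Nd4, 0.97 for mt-Co2, 0.87 for mt-Nd1, 0.86 for mt-Nd5 and 0.77 for mt-Cytb. It was 0.42 for mt-Atp6, 0.06 for mt-Co3, -0.49 for mt-Nd6 and -0.53 for mt-Nd2. Control replicate 3 weighs heavily in each of these values. Among 6352 nuclear genes with a mean of at least 5 FPKM, the 5 most like mt-Co1 were Eif4g2, Glipr1, Actr10, Slk and Actr3, with r of 0.998 to 0.9997 over the same libraries. Without control replicate 3 and TPPU replicate 1, the libraries farthest from the median, r was 0.877 to 0.985 over the remaining 4, which also entered the choice of these genes. Glipr1 measured 62.7, 73.3 and 15.6 FPKM in control and 42.2, 68.1 and 75.7 FPKM with TPPU.

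The products of many nuclear genes join these proteins in the same complexes. The mitochondrial genes were chosen for their differences between libraries and the nuclear lists were not, so their deviations are set side by side as a description. In control replicate 3 the median deviation from the median of the 6 libraries was -0.91 for the 10 mitochondrial genes, and -0.06 for 34 nuclear subunits of complex I, -0.17 for 9 of complex III, -0.02 for 12 of complex IV and -0.02 for 16 of ATP synthase. In TPPU replicate 1 it was -0.61 for the mitochondrial genes and between 0.07 and 0.14 for those 4 nuclear groups. The lowest library was control replicate 3 in 11 of 34, 4 of 9, 4 of 12 and 5 of 16 of these nuclear genes. Of the nuclear genes, 30 of 34 in complex I, 9 of 9 in complex III, 11 of 12 in complex IV and 16 of 16 in ATP synthase had a positive change with TPPU. The medians were 0.16, 0.22, 0.14 and 0.14. The mitochondrial genes had 5 of 10 positive, and 54.4% of all tested genes were positive. The ATP synthase list includes the inhibitor Atpif1. None of these nuclear genes passed the test, with 0 higher and 0 lower in each group. Ndufb11, an accessory subunit of complex I, measured 23.6 ± 1.80 FPKM in control and 32.3 ± 2.40 with TPPU (limma adjusted p = 0.397). Uqcrh, the hinge subunit of complex III, measured 56.8 ± 8.03 and 73.5 ± 3.31, Cox6b1 of complex IV 68.2 ± 4.80 and 81.9 ± 6.03, and Atpif1, the inhibitor of ATP synthase, 19.9 ± 2.14 and 24.9 ± 1.64. Complex II, which has no mitochondrially encoded subunit, had a median of 0.05 over 4 genes.

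Genes that act on mitochondrial DNA and RNA gave no call either. Of 20 tested genes of mitochondrial DNA transcription and maintenance 15 had a positive change (median 0.15), of 24 genes of mitochondrial RNA processing, polyadenylation and decay 18 (median 0.10), and of 77 mitochondrial ribosomal protein genes 62 (median 0.11), with 0 passing in each list. Over all tested genes 54.4% were positive (median 0.02). Dguok, of smallest p in the first of these lists, measured 6.41 ± 0.466 FPKM in control and 8.08 ± 0.572 with TPPU (limma adjusted p = 0.564). It was not lowest in control replicate 3, at 6.46. Tfb2m, a factor that opens mitochondrial promoters, measured 4.86 ± 1.64 FPKM in control and 6.82 ± 1.16 with TPPU (limma adjusted p = 0.633). It stood lowest in control replicate 3, at 3.04, as did 9 of the 20 genes of that list, against 27.7% of all tested genes. Pnpt1, which encodes the mitochondrial RNA-degrading enzyme PNPase, measured 8.83 ± 1.64 and 11.2 ± 1.44, and Mrpl3, of the large mitochondrial ribosomal subunit, 6.02 ± 1.07 and 8.59 ± 0.488. The median deviation in control replicate 3 was -0.09, -0.02 and -0.02 for the 3 lists. For 15 translation factors, 35 assembly factors and 9 regulators of mitochondrial biogenesis the median change was 0.02, 0.01 and -0.09, again with 0 passing. Among RNAs listed as signs of RNA quality, the nuclear RNA Malat1 was at 70.6, 84.9 and 56.7 FPKM in the controls. With TPPU it was at 42.5, 44.1 and 41.2 FPKM, below every control, of which replicate 3 was the lowest (log2 change -0.70, limma adjusted p = 0.339). Of all tested genes, 7.88% lay below every control in the same way. TPPU replicate 1, which stood apart in the mitochondrial genes, was level with the other TPPU libraries in Malat1. Neat1, also retained in the nucleus, measured 12.6 to 19.8 FPKM in control and 11.2 to 14.1 with TPPU. The part of RNA quality in the values of the mitochondrial genes and in their ratios was not tested.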

How the data were processed

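Per the labels' protocols, libraries were made from poly(A) RNA with dUTP marking of strand. The authors deposited 1 table of FPKM for 18019 genes. The submitters' processing notes name mm10; aligner, counter and annotation were not given in the sources used. The library names in the header gave each column its sample.

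Depth was estimated from the whole-number steps of low FPKM in genes with 1 transcript (90.8% to 92.2% of values whole within 0.1 fragment, 20% by chance). Fragments per gene are FPKM times annotated length times depth. Values were compared as log2(FPKM + 1) by limma 3.58.1 under R 4.3.3 (trend on, two-sided, Benjamini-Hochberg adjustment, threshold 0.05), over the 9728 genes that reached 1 FPKM in 3 or more libraries. On simulated data of 9728 genes with 200 changed, the fit recovered 35.8%, 74.6% and 98.5% at folds of 1.5, 2 and 4. It made 5 false calls. Recovery at the spread of the 10 members, whose SEs ran from 0.21 in mt-Nd6 to 0.59 in mt-Co1, was not tested. Copies were sought with BLAST 2.17.0 (E at most 1e-20) and exact windows in GENCODE M21 transcripts.

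The genes and lists were chosen with earlier results of these data known. Named genes are the 10 members, the 4 genes of smallest p per nuclear list (examples are given), and the 5 most like mt-Co1. Other software was scipy 1.17.1, pandas 2.3.3 and matplotlib 3.10.9 under Python 3.11.15.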

Additional observations from a re-analysis of the deposited data

How the results depend on the processing

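The alternatives were other pseudocounts (0.1, 0.5), testing every gene or those averaging 5 FPKM or more (which leaves out mt-Co3), scaling by median of ratios, by quantiles or without mitochondrial genes, no trend, sample quality weights, robust empirical Bayes, the replicate block and each library left out. No member was called in any of them. Over all genes, 0 were higher and 0 lower except with quality weights (89 and 80), without TPPU replicate 1 (5 and 1) and without both libraries that stood apart (29 and 10). With the replicate block 0 were higher and 0 lower, and the members' changes cannot move in this balanced design. Deviations of same-numbered libraries correlated at -0.30, 0.15 and -0.40, and 0 of 3 controls correlated best with their own number. The libraries that stood apart, control replicate 3 and TPPU replicate 1, have different numbers and weigh in these values. The correlations therefore cannot decide whether the numbers pair the libraries.

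The median change of the members, -0.02, ran from -0.27 to 0.32 as single libraries were left out. Signs turned for mt-Nd1 (-0.58 to 0.36; 0.02, 0.36 and 0.25 leaving out control 1, control 2 or TPPU 1), mt-Nd5 (-0.52 to 0.27; 0.05, 0.25 and 0.27 leaving out the same), mt-Nd2 (-0.36 to 0.19; 0.32 with quality weights, 0.19 and 0.06 without control replicate 3 and TPPU replicate 1, 0.35 without both), mt-Co1 (1.07 to -0.17, the latter without control replicate 3), mt-Co3 (0.29 to -0.05, the latter without control replicate 1) and mt-Atp6 (-0.40 to 0.15, the latter without TPPU replicate 1, 0.09 without both). For mt-Cytb the value was 0 with quantile normalization, and leaving out libraries gave up to 0.42, with -0.01, -0.31, -0.11 and -0.25 without control replicates 1 and 3 and TPPU replicates 2 and 3. The cause was not tested. The share of mt-Nd4 in the members' sum, 3.81% on average, was 26.3% with mt-Co1 left out, which follows from the smaller sum. The planned addition of listed pseudogene copies was not run, since the 1 listed symbol, Gm11808, aligned to no member. Depth limits mt-Co3 and mt-Co2, with 30 and 18 fragments in their lowest libraries.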
